A study of Mus musculus with 64 samples.

Results

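The HuM features are the 32 rows of a spotted mouse array whose identifiers begin with HuM, out of 6963 features in all. They are a small collection beside the 6664 features whose identifiers begin with MSK, the 194 that begin with MMC and the 73 that begin with IRchip. The letters and numbers after HuM have the form of a plate, a well row and a well column. None of the 32 identifiers (0) matched the mouse gene table, and no source used here pairs them with genes, so the features are described by identifier, with no gene, function or sequence. Whether HuM stands for a species, a library or something else is not stated in the labels.

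The RNA came from 3T3-L1 adipocytes, fat cells made in culture from a mouse fibroblast line, used between days 8 and 12 of differentiation. On each of 64 arrays the RNA of 1 culture, labelled with Cy5, was hybridised with a pool from untreated differentiated 3T3-L1 cells labelled with Cy3. The TNF+ASA+TGZ group (21 arrays) received 3 ng/ml TNF during a first step of 48 h, followed by 24 h of 5 mM ASA with 10 µM TGZ. The TNF group (21 arrays) received 3 ng/ml TNF in both steps. The vehicle group (22 arrays) had only 0.2% albumin listed for its second step. Titles and design text call it vehicle, while its source text names a first 48 h with TNF as well, so whether these cells had met TNF is not settled. Nor do the labels say whether TNF was still present during the 24 h with ASA and TGZ. Adding the drugs and removing TNF therefore cannot be told apart.

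TNF is an inflammatory cytokine that acts on fat cells through its receptors and NF-κB. It lowers the expression of many adipocyte genes, raises lipolysis and impairs insulin signalling. ASA and TGZ were read as aspirin (acetylsalicylic acid) and troglitazone. Aspirin inhibits cyclooxygenases and, at high concentration, the kinase upstream of NF-κB, and troglitazone is a thiazolidinedione that activates PPARγ, the nuclear receptor that drives fat cell differentiation. The series is titled as a search for an expression signature of insulin resistance. Its 3 groups ask what TNF does to transcript levels and what ASA with TGZ does after TNF.

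The values are ratios of culture over pool on a log scale. The base is not given in the sources used here, so sizes are in deposited log units and any fold assumes base 2. The dyes in the labels make culture over pool the likely direction. If the ratio was turned, each higher below is a lower. HuM values ran from -2.19 to 1.39. The means of the 22 vehicle arrays lay between -0.0655 and 0.0491 over the 32 features. Over all 6963 features the SD of such row means was 0.332 in TNF and 0.0356 in vehicle, as if each row had been set to 0 on the vehicle arrays, and levels against the pool cannot be read. Of 2016 pairs of arrays 33 correlated below -0.3, all 33 with a vehicle array in the pair, and the lowest r was -0.707, between TNF+ASA+TGZ array 13 and vehicle array 6. The stated dyes are the ground for keeping the direction. No background signal is at hand, so the precision is that given by the number of arrays. Extreme HuM values were most frequent on 4 arrays, with 11 to 13 each, where the next array held 7, though most extremes lay on other arrays. TNF+ASA+TGZ array 13 had the highest SD over all features of any array (0.626, against a group median of 0.441), and it held the lowest value of its group for 9 HuM features and the highest for 2. TNF array 16 did so for 8 and 3, with an SD of 0.491 against a group median of 0.416. Vehicle array 6 did so for 7 and 5 features and vehicle array 17 for 9 and 4, with SDs of 0.60 and 0.593 against a group median of 0.218. With all 4 left out, 20, 9 and 20 HuM features passed the test defined below in TNF against vehicle, TNF+ASA+TGZ against TNF and TNF+ASA+TGZ against vehicle, where all arrays gave 21, 9 and 19. The features whose call turned on single arrays are named beside each comparison.

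In TNF cells most HuM features that responded were lower. At an adjusted p under 0.05 in limma (Benjamini-Hochberg over all 6963 features), here "called", 21 of 32 HuM features differed between TNF and vehicle, 4 higher and 17 lower. The background over all 6963 features was 59.0% called, 27.0% higher and 32.0% lower. The HuM shares were 65.6% called, 12.5% higher and 53.1% lower. Among the 6664 MSK features they were 58.4%, 27.6% and 30.9%. Of all 2228 features called lower, 2057 were MSK and 17 HuM. The rest fell among the 194 MMC and 73 IRchip features, a larger share of those than for HuM. The difference had a median of -0.148 log units over the 32 HuM features, -0.0140 over the MSK features and -0.0210 over all features. With its sign left aside the median size was 0.231 for HuM and 0.206 for MSK. The lean towards lower values is a count over 32 features that were not tested as a set. It was smaller with arrays centred on their medians. Then 4 HuM features were higher and 12 lower (37.5%), while the MSK counts turned to 2010 higher and 1841 lower (27.6%), and the share called was 50.0% for HuM and 57.8% for MSK. With arrays scaled to a common MAD 10 HuM features were lower (31.2%), against 20.0% of MSK features, and after quantile normalization 11 (34.4%), against 22.6%. A called difference of at least 0.5 was found for 2 HuM features (6.25%), 580 MSK features (8.70%) and 655 of all features (9.41%).

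The 4 features higher in TNF were HuM1j9, HuM1e18, HuM1b12 and HuM1i21, and their differences lay close together, between 0.406 and 0.523. The first 2 were named as the largest rises and the other 2 after their values were seen. HuM1j9 ranged over 0.24 to 1.10 (median 0.54) on the TNF arrays and over -1.78 to 0.37 (median 0.11) on the vehicle arrays. All 21 TNF arrays lay above the vehicle mean and 18 above every vehicle array, so the groups overlapped at their edges. The difference was 0.523 (SE of 0.0950, adjusted p = 4.36e-06), or 1.44-fold. Vehicle array 6 held the value of -1.78, and without it the difference was 0.437 (adjusted p = 1.41e-07).

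HuM1e18 ranged over -0.36 to 0.97 (median 0.41) in TNF and over -0.73 to 0.31 (median 0.07) in vehicle. It was high on most TNF arrays, 19 of 21 above the vehicle mean, and the difference was 0.437 (SE of 0.0847, adjusted p = 1.39e-05). HuM1b12 had values of -0.34 to 0.93 (median 0.47) in TNF and of -0.60 to 0.49 (median -0.04) in vehicle. Again 19 of 21 TNF arrays lay above the vehicle mean, with a difference of 0.430 (adjusted p = 0.000153). For HuM1i21 the values were -0.42 to 0.80 (median 0.32) in TNF and -1.54 to 0.53 (median -0.035) in vehicle, where array 17 held the lowest. The difference of 0.406 (adjusted p = 0.000564) became 0.336 (adjusted p = 0.000743) without that array.

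The largest falls in TNF were those of HuM1f21 and HuM1b19. HuM1f21 had values of -1.33 to -0.25 (median -0.81) in TNF and of -0.53 to 1.08 (median -0.12) in vehicle. On all 21 TNF arrays it was under the vehicle mean, and on 15 under every vehicle array. The difference was -0.670 (SE of 0.0912, adjusted p = 7.69e-09), or 1.59-fold, and 84 of the 6963 features had a lower one. HuM1b19 had values of -1.11 to -0.12 (median -0.39) in TNF and of -2.09 to 0.56 (median 0.14) in vehicle. Its TNF arrays all lay below the vehicle mean, and the vehicle value of -2.09 was that of array 6, while the next lowest vehicle value was -0.09. The difference was -0.446 (SE of 0.109, adjusted p = 0.000388) and -0.548 (adjusted p = 5.87e-09) without array 6.

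Of the other lower features, HuM1c4, HuM1c23 and HuM1b18 are described below, and the remaining 12 differed by -0.434 to -0.128 (adjusted p of 3.02e-10 to 0.0434), with 14 to 21 of the 21 TNF arrays below the vehicle mean. Of these 12, the calls nearest to the threshold turned on single arrays (features named after their values were seen). HuM1j8 lost its call in 18 of the 64 fits that left out 1 array, vehicle array 17 (adjusted p = 0.0669) and TNF array 16 among them, and HuM1a23 in 11, vehicle array 6 (adjusted p = 0.0795) and TNF array 16 among them. HuM1j2 lost it in 4 fits and HuM1e22 in 1, without TNF array 16 (adjusted p = 0.0655). The 11 features that were not called had differences of -0.201 to 0.119, and their 95% intervals reached from -0.446 to 0.290. Of these HuM1k13, at -0.201, was called without vehicle array 6 (-0.264, adjusted p = 0.0424) and HuM1a1 without vehicle array 13 (adjusted p = 0.0472). The plot of values by array shows 12 features in the 3 groups, those whose values on the arrays are described here.

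**Figure D1:**
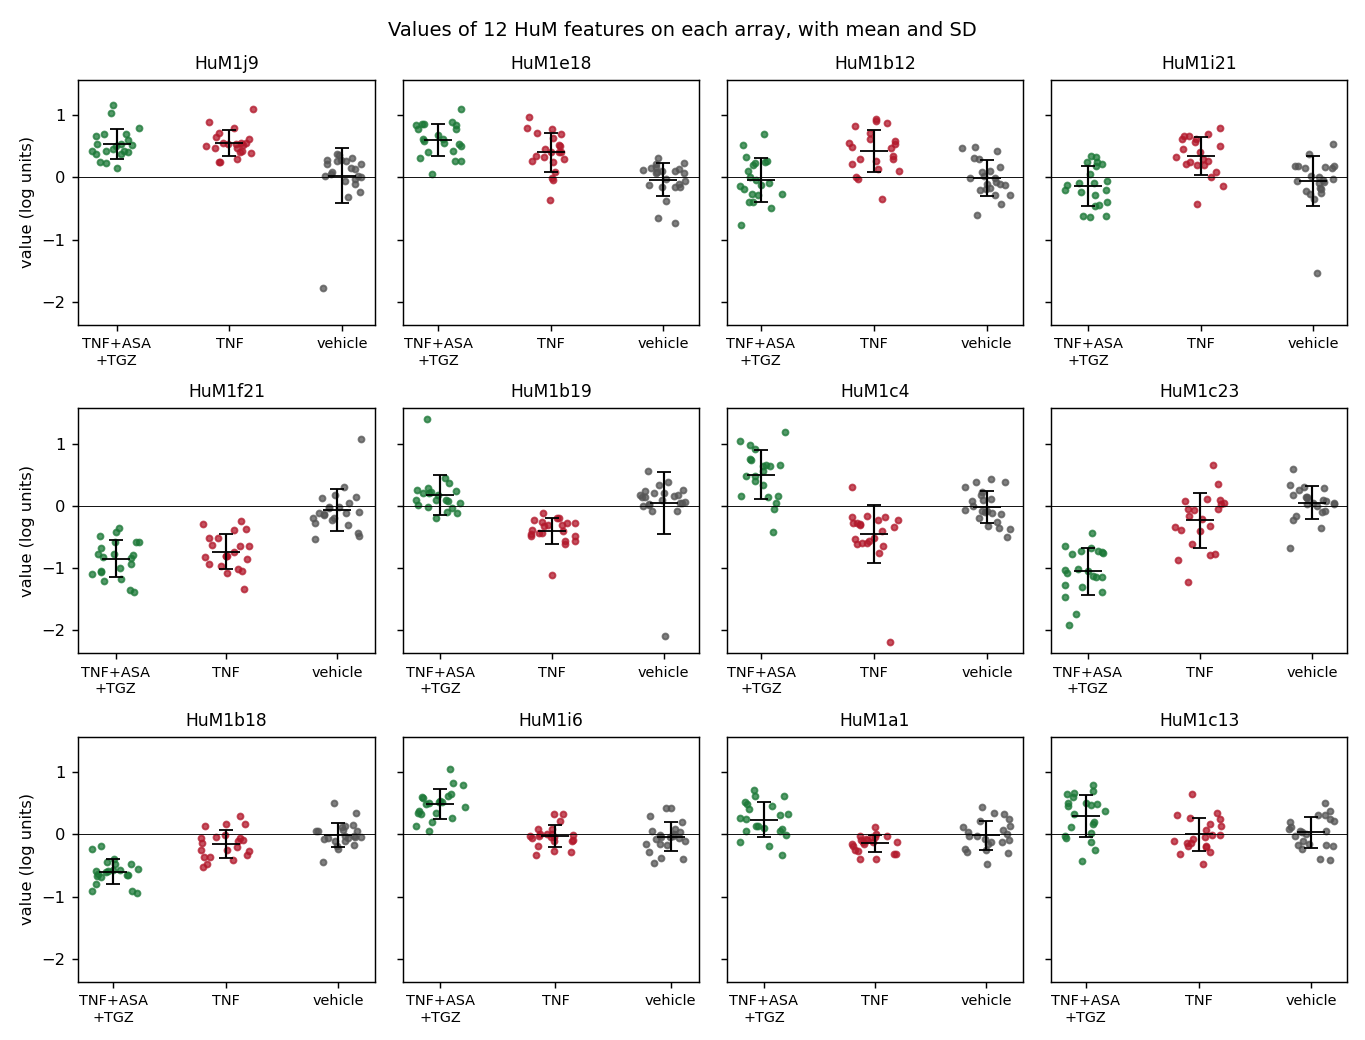
Values of 12 HuM features on each array in deposited log units (vertical axis), by group (horizontal axis: 21 TNF+ASA+TGZ, 21 TNF and 22 vehicle arrays); points are arrays, bars the mean and SD. HuM1c4 is high in TNF+ASA+TGZ (mean 0.500) and low in TNF (mean -0.453), HuM1c23 is lowest in TNF+ASA+TGZ (mean -1.05), and the single low vehicle points of HuM1j9 (-1.78) and HuM1b19 (-2.09) are both array 6.

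Between TNF+ASA+TGZ and TNF fewer HuM features differed, and those that did lay further from 0, in both directions. Of the 32 features 9 (28.1%) were called, 5 higher and 4 lower in TNF+ASA+TGZ. The background over all features was 24.8% called, 12.0% higher and 12.7% lower, and among MSK features 24.7%, 11.8% and 12.95%. The median difference over the 32 was 0.0121 log units, against 0.00286 over MSK, and the median size was 0.104 and 0.0957. The called HuM features were large for this comparison. Their median was 0.510 among the higher and -0.472 among the lower, where the called MSK features had 0.316 and -0.360. A called difference of at least 0.5 was found for 4 HuM features (12.5%), 215 MSK features (3.23%) and 240 of all features (3.45%). Of the 4, HuM1i6 was just over that cutoff, at 0.510. These shares are a description, and no test was made of the collection against the rest.

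All 9 can be named. HuM1c4, HuM1b19, HuM1c23 and HuM1i21 were the 2 largest rises and falls and HuM1i6 a largest rise against vehicle. HuM1a1, HuM1c13, HuM1b12 and HuM1b18 were added after their values were seen. HuM1c4 had values of -0.42 to 1.19 (median 0.56) in TNF+ASA+TGZ and of -2.19 to 0.31 (median -0.34) in TNF. Every TNF+ASA+TGZ array (21 of 21) lay above the TNF mean and 15 above every TNF array. The difference of 0.953 (SE of 0.114, adjusted p = 5.71e-10) is 1.94-fold, and only 18 of the 6963 features had a higher one. The TNF value of -2.19 was that of TNF array 15, and over the fits that left out 1 array the difference stayed between 0.867 and 0.999.

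HuM1b19 had values of -0.19 to 1.39 (median 0.10) in TNF+ASA+TGZ and of -1.11 to -0.12 (median -0.39) in TNF. The groups barely overlapped, with 19 of 21 TNF+ASA+TGZ arrays above every TNF array, and the difference was 0.580 (SE of 0.110, adjusted p = 3.16e-05). The value of 1.39 was that of TNF+ASA+TGZ array 13, the next highest was 0.44, and without that array the difference was 0.519 (adjusted p = 5.17e-05). HuM1i6 had values of 0.06 to 1.05 (median 0.51) in TNF+ASA+TGZ and of -0.33 to 0.32 (median -0.03) in TNF. It was positive on all 21 TNF+ASA+TGZ arrays, with a difference of 0.510 (SE of 0.0679, adjusted p = 1.35e-08). HuM1a1 and HuM1c13 differed by 0.380 (adjusted p = 1.82e-05) and 0.290 (adjusted p = 0.00811), with 19 and 16 of 21 arrays above the TNF mean. After quantile normalization HuM1c13 was at 0.243 and no longer called (adjusted p = 0.0524).

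HuM1c23 showed the largest fall of the collection. Its values were -1.92 to -0.43 (median -1.04) in TNF+ASA+TGZ and -1.23 to 0.65 (median -0.16) in TNF. All 21 TNF+ASA+TGZ arrays lay below the TNF mean and 6 below every TNF array. The difference was -0.820 (SE of 0.109, adjusted p = 1.51e-08), or 1.76-fold, and 5 of the 6963 features had a lower one. HuM1b18 had values of -0.94 to -0.19 (median -0.59) in TNF+ASA+TGZ and of -0.53 to 0.29 (median -0.14) in TNF, with 15 of 21 arrays below every TNF array and a difference of -0.446 (SE of 0.0648, adjusted p = 1.34e-07).

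HuM1i21 had values of -0.64 to 0.34 (median -0.13) in TNF+ASA+TGZ and of -0.42 to 0.80 (median 0.32) in TNF, and HuM1b12 of -0.76 to 0.69 (median -0.09) and of -0.34 to 0.93 (median 0.47). Both were lower in TNF+ASA+TGZ while the ranges overlapped. Of 21 TNF+ASA+TGZ arrays 21 and 19 lay below the TNF mean, and 5 and 4 below every TNF array. The lowest TNF value of HuM1i21 was that of array 16, and the next lowest was -0.14. The differences were -0.483 (adjusted p = 0.000201) and -0.461 (adjusted p = 0.000202). The other 23 features differed by -0.200 to 0.205, with intervals reaching from -0.463 to 0.376. Of these HuM1e18 came nearest to the threshold (0.205, adjusted p = 0.0721) and passed it in 6 of the 64 fits that left out 1 array.

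**Figure D2:**
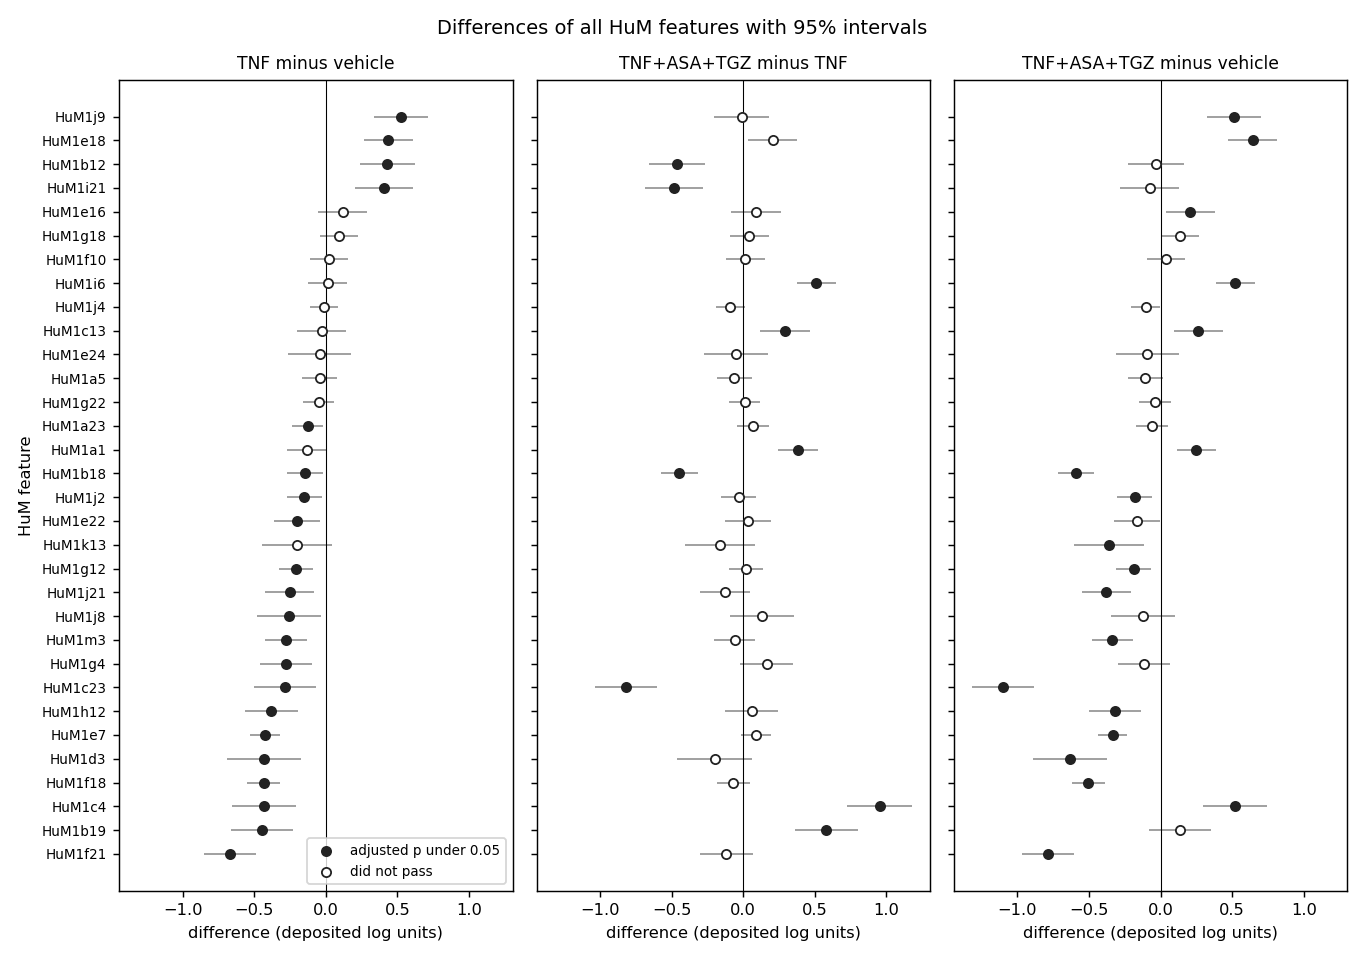
Difference of each of the 32 HuM features (rows) in the 3 comparisons, in deposited log units (horizontal axis), with 95% intervals from limma; filled points had an adjusted p under 0.05. In TNF minus vehicle 17 filled points lie left of 0 and 4 right of it; in TNF+ASA+TGZ minus TNF 9 points are filled, from -0.820 (HuM1c23) to 0.953 (HuM1c4).

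Set side by side, the comparisons show several courses, some of them shared by a number of features. They share arrays, TNF in the first 2 and vehicle in the first and last, so their values are not independent of each other. HuM1b19 and HuM1c4 were both lower in TNF than in vehicle (HuM1c4 by -0.434, adjusted p = 0.000812) and higher in TNF+ASA+TGZ than in TNF. Against vehicle, HuM1b19 in TNF+ASA+TGZ differed by 0.133 (95% interval -0.0834 to 0.350, adjusted p = 0.281), by 0.0314 without vehicle array 6 (adjusted p = 0.717) and by -0.0370 without the 4 arrays (adjusted p = 0.585). HuM1c4 lay 0.519 above vehicle (SE of 0.112, adjusted p = 8.21e-05), so it passed vehicle on the other side. HuM1i21 and HuM1b12 were higher in TNF and lower again in TNF+ASA+TGZ. Their differences from vehicle were then -0.0771 (95% interval -0.280 to 0.126) and -0.0319 (95% interval -0.226 to 0.162). Neither passed the test, with adjusted p = 0.514 and 0.781 in limma.

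HuM1c23 and HuM1b18, both lower in TNF+ASA+TGZ than in TNF, had small negative differences between TNF and vehicle as well. HuM1c23 differed by -0.283 between TNF and vehicle (SE of 0.108, adjusted p = 0.0210), with 15 of 21 TNF arrays below the vehicle mean. HuM1b18 differed by -0.146 (SE of 0.0640, adjusted p = 0.0445) in that comparison, a call close to the threshold. It was lost in 19 of the 64 fits that left out 1 array, 10 of them without a TNF array and 9 without a vehicle array (highest adjusted p = 0.0861), and with arrays centred on their medians (-0.123, adjusted p = 0.0820). HuM1i6, HuM1c13 and HuM1a1 were not called between TNF and vehicle. Their differences there were 0.0125, -0.0286 and -0.132, with adjusted p = 0.891, 0.803 and 0.0934 in limma.

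HuM1f21 and HuM1j9 were called against vehicle in both treated groups and not between them. The same held for HuM1d3, HuM1e18, HuM1e7, HuM1f18, HuM1g12, HuM1h12, HuM1j2, HuM1j21 and HuM1m3, so this course was not particular to HuM1f21 and HuM1j9. Between TNF+ASA+TGZ and TNF the difference was -0.118 for HuM1f21 (95% interval -0.302 to 0.0664) and -0.0119 for HuM1j9 (95% interval -0.204 to 0.180). The interval for HuM1j9 leaves out a return by the full 0.523 seen between TNF and vehicle.

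Between TNF+ASA+TGZ and vehicle 19 of 32 HuM features (59.4%) were called, 7 higher and 12 lower. The background over all features was 60.8% called, 28.8% higher and 31.9% lower, and among MSK features 60.7%, 29.3% and 31.3%. The share called was thus near the background. A called difference of at least 0.5 was found for 9 HuM features (28.1%) and 625 MSK features (9.38%). The HuM share was above that of MSK, as between TNF+ASA+TGZ and TNF, whereas between TNF and vehicle it was below it. This contrast depends on the cutoff. Between TNF and vehicle HuM1b19 (-0.446), HuM1e18 (0.437) and HuM1f18 (-0.434), among others, lay a little under it. Between TNF+ASA+TGZ and vehicle HuM1f18 (-0.504), HuM1j9 (0.511) and HuM1c4 (0.519) lay just over it. Of all 717 features (10.3%) with a called difference of at least 0.5 between TNF+ASA+TGZ and vehicle, 625 were MSK and 9 HuM. The rest fell among the 194 MMC and 73 IRchip features, a larger share of those than for HuM. None of these shares was tested. With arrays scaled to a common MAD the MSK counts were 1720 higher and 1223 lower in place of 1955 and 2089 (44.2% called). The HuM counts were then 6 higher and 9 lower (46.9%). After quantile normalization 4 HuM features were higher and 9 lower (40.6%, against 44.8% of MSK features). With arrays centred on their medians 8 were higher and 12 lower (62.5%, against 58.7%). The median over the 32 was -0.105 log units, against -0.0411 over MSK and -0.0458 over all features.

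HuM1c23 fell furthest, with values of -1.92 to -0.43 in TNF+ASA+TGZ and of -0.67 to 0.60 (median 0.06) in vehicle. All 21 TNF+ASA+TGZ arrays lay below the vehicle mean and 19 below every vehicle array. The difference of -1.10 (SE of 0.108, adjusted p = 1.55e-13) is 2.15-fold, and 20 of the 6963 features had a lower one. HuM1f21 differed by -0.788 (SE of 0.0912, adjusted p = 4.89e-11), with 18 of 21 arrays below every vehicle array, and HuM1b18 by -0.592 (SE of 0.0640, adjusted p = 5.35e-12), likewise with 18. The largest rises were those of HuM1e18, at 0.642 (SE of 0.0847, adjusted p = 2.41e-09), and HuM1i6, at 0.523 (SE of 0.0671, adjusted p = 1.17e-09). Each had all 21 TNF+ASA+TGZ arrays above the vehicle mean. HuM1j9 differed by 0.511 (adjusted p = 6.44e-06), HuM1c13 by 0.262 (adjusted p = 0.00712) and HuM1a1 by 0.248 (adjusted p = 0.00163). The last 2 lost their calls after quantile normalization (adjusted p = 0.0620 for HuM1c13 and 0.0584 for HuM1a1). Besides HuM1c4, given above, the other called features were HuM1e16, at 0.209 (adjusted p = 0.0305), and 9 lower ones at -0.632 to -0.181. HuM1e16 lost its call without vehicle array 17 (0.168, adjusted p = 0.0627) or without TNF+ASA+TGZ array 3 or 9. Without vehicle array 17 the features HuM1a5, HuM1e22 and HuM1j4 gained one, lower by -0.130, -0.193 and -0.130 (adjusted p = 0.0499, 0.0285 and 0.0130). Over the 64 fits that left out 1 array these gained a call in 1, 5 and 6, and HuM1g18 did so in 4.

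**Figure D3:**
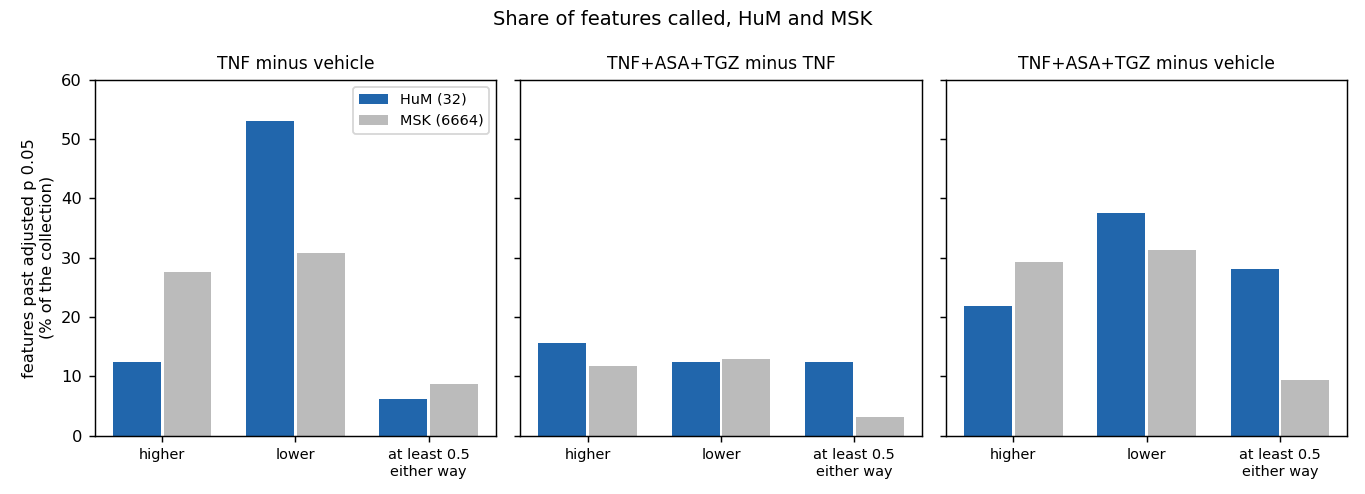
Share of the 32 HuM and the 6664 MSK features (percent, vertical axis) called higher, called lower, or called with a difference of at least 0.5 log units either way, in the 3 comparisons. HuM exceeds MSK among lower features in TNF minus vehicle (53.1% and 30.9%) and among large differences in TNF+ASA+TGZ minus vehicle (28.1% and 9.38%), while its share of large differences in TNF minus vehicle is below that of MSK (6.25% and 8.70%). In each of these shares the MMC and IRchip features together, not shown, exceeded HuM. The shares of large differences depend on the cutoff of 0.5, since some HuM features lay close to it on either side.

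The spread of a HuM feature within a group was like that of an MSK feature. The median SD over the arrays of a group was 0.269 in TNF+ASA+TGZ, 0.219 in TNF and 0.261 in vehicle for HuM, and 0.263, 0.225 and 0.246 for MSK. Array by array, the median of the 32 features was -0.205 to 0.110 in TNF+ASA+TGZ, -0.315 to 0.0200 in TNF and -0.0700 to 0.0800 in vehicle.

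Arrays with numbers of 1 to 11 and of 12 upwards are known from earlier results of these data to differ in every group, a division that the labels do not name. They hold 11 arrays of each group, and then 10 TNF+ASA+TGZ, 10 TNF and 11 vehicle arrays. Within these, 12 and 13 HuM features were called between TNF and vehicle, 7 and 9 between TNF+ASA+TGZ and TNF, and 17 and 15 between TNF+ASA+TGZ and vehicle. Over all 6963 features the same shares called were 49.9% and 37.7%, 15.3% and 12.7%, and 47.7% and 41.8%. Of the 32 HuM features 25 (78.1%), 23 (71.9%) and 29 (90.6%) had the same sign in both sets, against 85.1%, 70.4% and 87.9% of all features. All those called over all arrays did so, 21, 9 and 19, a count that follows in part from how they were chosen, since the call used both sets. An interaction test in limma between the sets called no HuM feature (0 in each comparison, with 1 at an unadjusted p under 0.05 in each and a lowest adjusted p of 0.133). Over all 6963 features it called only 19, 1 and 18, so a count of 0 among 32 says little about the HuM features. HuM1c23 differed between TNF+ASA+TGZ and TNF by -0.708 in the first set and -0.942 in the second, HuM1c4 by 0.893 and 1.02, and HuM1i6 by 0.642 and 0.366. HuM1b19 differed in that comparison by 0.397 in the first set (adjusted p = 0.110) and by 0.780 in the second. Between TNF and vehicle it differed by -0.275 in the first set (adjusted p = 0.174) and by -0.628 in the second (adjusted p = 0.000104). Vehicle array 6 is in the first set, and without it those first-set values were 0.397 (adjusted p = 0.000120) and -0.482 (adjusted p = 8.43e-06). HuM1c4 differed between TNF and vehicle by -0.414 in the first set and by -0.467 in the second, where it was not called (adjusted p = 0.0521), and by -0.288 there without TNF array 15 (adjusted p = 0.133).

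The calls of HuM1a1 against vehicle differed between the sets, though its interaction did not pass after adjustment. In the first set HuM1a1 was lower in TNF than in vehicle, by -0.280 (adjusted p = 0.0158), and TNF+ASA+TGZ differed from vehicle by 0.0291 (adjusted p = 0.812). In the second TNF differed from vehicle by 0.0208 (adjusted p = 0.868), and TNF+ASA+TGZ lay 0.479 above vehicle (adjusted p = 3.38e-05). The interaction between the sets had an unadjusted p of 0.0216 for TNF against vehicle (adjusted p = 0.741) and of 0.000794 for TNF+ASA+TGZ against vehicle (adjusted p = 0.133). Between TNF+ASA+TGZ and TNF it was higher in both, by 0.309 and 0.458. HuM1c13 was not called in the first set, at 0.214 between TNF+ASA+TGZ and TNF (adjusted p = 0.263) and 0.229 between TNF+ASA+TGZ and vehicle (adjusted p = 0.125), and was called in the second, at 0.375 and 0.308. In neither set was HuM1c23 or HuM1b18 called between TNF and vehicle. There HuM1c23 differed by -0.197 (adjusted p = 0.150) and -0.364 (adjusted p = 0.0977), and HuM1b18 by -0.130 (adjusted p = 0.271) and -0.161 (adjusted p = 0.118).

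**Figure D4:**
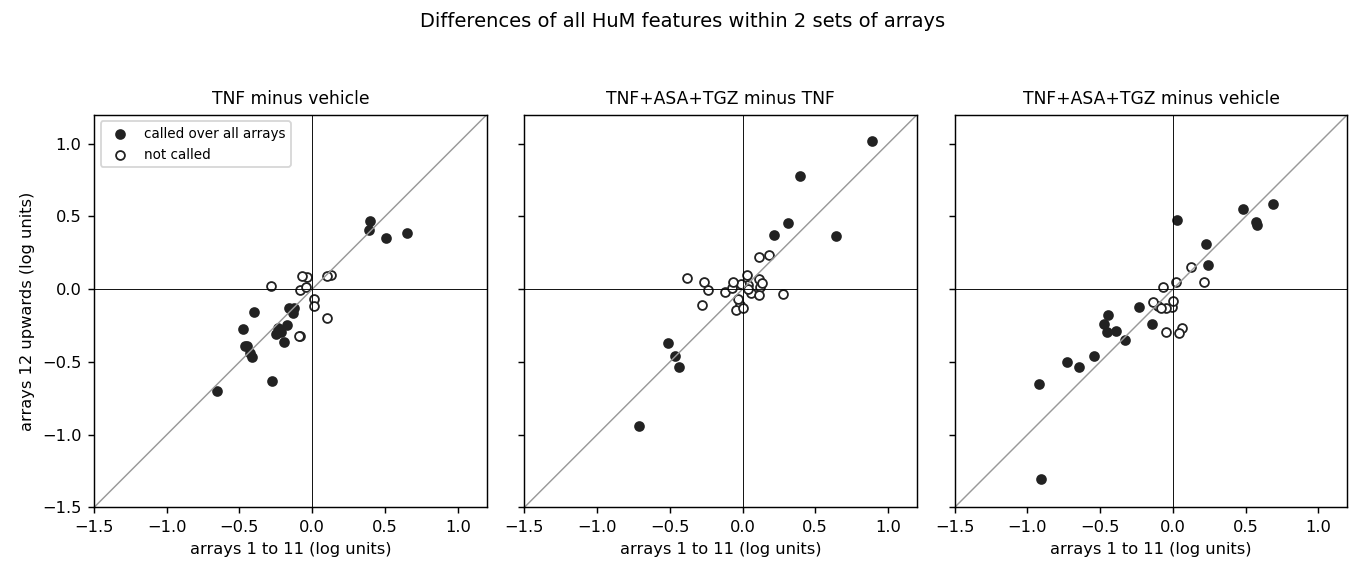
Difference of each of the 32 HuM features within the arrays numbered 1 to 11 (horizontal axis) and within those numbered 12 upwards (vertical axis), in deposited log units, for the 3 comparisons; the grey line marks equal values and filled points were called over all arrays. All filled points lie in the quadrants where both sets have the same sign.

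Within groups most HuM features did not move as one. Over the 496 pairs of HuM features, Pearson r across the 64 arrays after group means were removed had a median of 0.0171, and 10 pairs (2.02%) exceeded 0.6. Among MSK pairs the median was -0.00593 and 1.53% exceeded it. The arrays share a pool, and the values are a description. The features named in this paragraph were chosen after their values were seen. The highest r was 0.786, between HuM1e16 and HuM1i21, and 0.745 without vehicle arrays 6 and 17. HuM1c13, HuM1g4, HuM1j21 and HuM1k13 formed a set of 4 in which all 6 pairs had r of 0.608 to 0.709 (0.588 to 0.718 without the 2 arrays). Only HuM1c13 of these 4 was called between TNF+ASA+TGZ and TNF. HuM1e18 and HuM1h12 moved against each other, with r of -0.766 and of -0.723 without the 2 arrays. For HuM1b19 and HuM1j9 an r of 0.640 rested on them, and it was 0.155 without them.

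**Figure D5:**
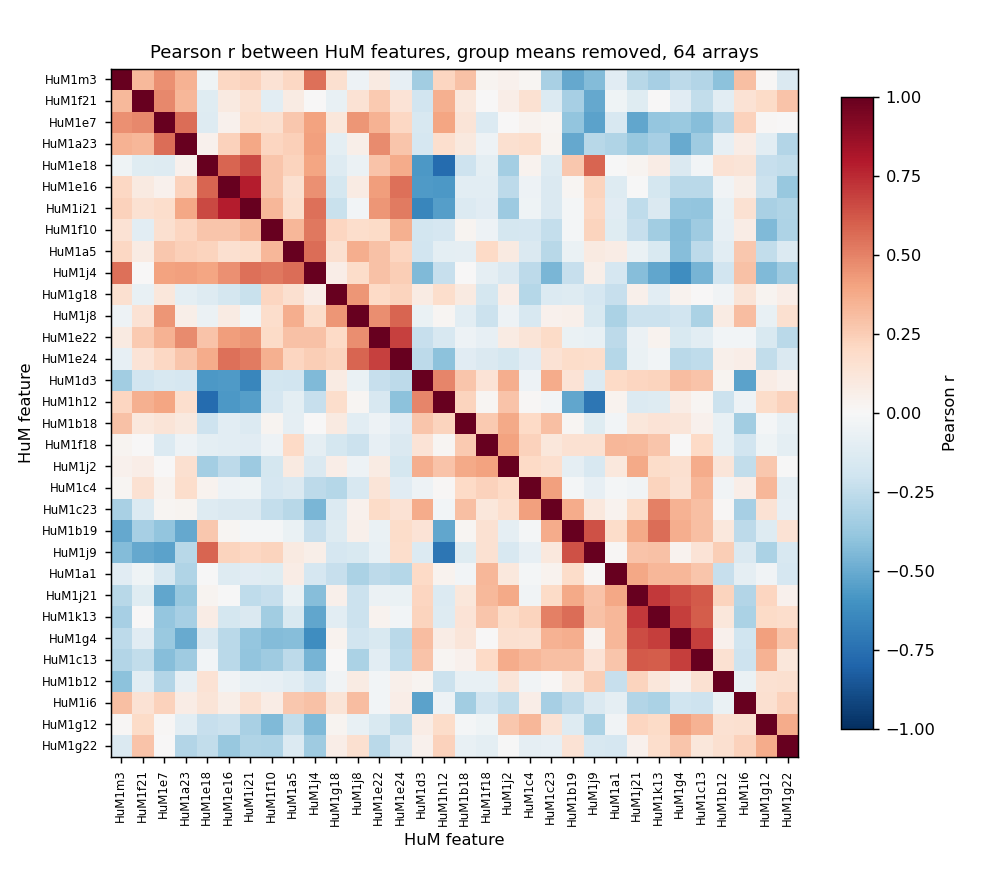
Pearson r between the 32 HuM features (both axes, ordered by average-linkage clustering) over 64 arrays after group means were removed; red is positive and blue negative. A small red block holds HuM1j21, HuM1k13, HuM1g4 and HuM1c13, and a second holds HuM1e18, HuM1e16 and HuM1i21.

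The 2 features of the whole array most like HuM1c23 by the same measure were MMC01d5, with r = 0.760, and MMC01d7, with r = 0.742, both over 64 arrays. Neither is an MSK feature. With the means of the 2 sets of numbers removed as well, r was 0.745 and 0.731. Neither r was recomputed without vehicle arrays 6 and 17, which held the lowest and highest vehicle values of HuM1c23 (-0.67 and 0.60). MMC01d5 differed by -0.625 between TNF+ASA+TGZ and TNF and by -1.0 from vehicle, and MMC01d7 by -0.677 and -0.921, against -0.820 and -1.10 for HuM1c23. Between TNF and vehicle MMC01d5 was called in limma (-0.375, adjusted p = 0.00126), as HuM1c23 was, and MMC01d7 was not (-0.244, adjusted p = 0.0578). Group means had been removed before the correlation, so these differences took no part in it.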

How the data were processed

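The authors deposited 1 table of log2 ratios (base 2 assumed), 6963 features by 64 arrays with no missing value (0), from 2-colour arrays made with 20 µg of RNA per the labels' protocols. For background correction, normalization and filters the method is not given in the sources used here. The values were used as deposited. Group means of all 64 arrays were fitted with limma 3.58.1 (lmFit, eBayes, no block) in R 4.3.3, and two-sided p-values were adjusted over 6963 features (Benjamini-Hochberg). The fit was tested on simulated data. Arrays were grouped by title. Replicates were grown and harvested independently per the design text. Collection day and passage are not tied to arrays, so arrays of a day may be correlated and p-values too small. Where same-numbered arrays of different groups share variation, p-values without a block can instead be too large. HuM rows were taken by identifier. Named features were the HuM features with the 2 largest called rises and falls of each comparison, plus the 2 features most like the one with the largest difference. Others named were chosen after their values were seen. The members and rules were chosen with earlier results of these data known. Planned marker lists could not be used without gene names. Alternatives were other scalings, thresholds, blocks, weights and sets of arrays. Figures and array checks used Python 3.11.15 with matplotlib 3.10.9.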

Additional observations from a re-analysis of the deposited data

How the results depend on the processing

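Results were recomputed under 15 other settings. Leaving out each array in turn, leaving out 4 arrays together and turning the sign of every value were chosen after seeing the data. No HuM call took the opposite sign under the 15 settings (0). Of 405 values of the 12 described features, 367 kept direction and call, 38 kept direction only and 0 reversed. Of the 38, 16 came from testing against a 1.2-fold difference, 7 from the arrays numbered 1 to 11 and 3 from those numbered 12 upwards. That test called 4, 3 and 8 of the 32 HuM features and 658, 143 and 690 of the 6664 MSK features. The order here and below is TNF minus vehicle, TNF+ASA+TGZ minus TNF and TNF+ASA+TGZ minus vehicle. Numbers 1 to 11 gave 12, 7 and 17 HuM features, beside 49.9%, 15.3% and 47.7% of all features, with 1012 MSK features in the second comparison. Numbers 12 upwards gave 13, 9 and 15 HuM features, beside 37.7%, 12.7% and 41.8% of all features. Their MSK features were 2463 in the first comparison and 832 in the second. These sets have fewer arrays. Other scalings of the arrays gave 14 to 16, 8 to 9 and 13 to 20 HuM features. Leaving out 1 array gave 17 to 21, 9 to 10 and 18 to 21 HuM features, 3775 to 4004, 1573 to 1715 and 3958 to 4188 MSK features, and HuM medians of -0.166 to -0.132, -0.00180 to 0.0220 and -0.126 to -0.0902. A replicate block over the arrays numbered 1 to 21 dropped vehicle array 22 and gave 20, 10 and 21 HuM features and 4216, 1947 and 4392 MSK features. Same-numbered arrays had r over 0.1 in 19, 18 and 17 of 21 pairs, and 11, 9 and 6 arrays correlated best with their own number. Same-numbered arrays also fall in the same set of numbers, and whether they shared variation beyond that was not tested. Some pairs fell short, and the labels name no pairing, so the main fit assumed no pairs. It thus left any variation that same-numbered arrays share in the spread. Signal over background is unknown.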
